A study of Homo sapiens with 6 samples.

Results

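JJN3 is an established human myeloma cell line, and its own expression is described here from the 3 arrays of cells that carried a scrambled short hairpin RNA (shRNA), a hairpin with no specific target. They are 3 of the 6 arrays in the study, chosen by their titles. The other 3 held JJN3 with an shRNA against CKS1B and were not used. Both hairpins came in by viral transduction, so the cells described are transduced cells carrying a hairpin, not untouched JJN3. Total RNA was labelled with biotin and hybridised to Affymetrix U133 Plus 2.0 arrays. They are called A, B and C here after their titles, and that of B carries the further word poly, whose meaning is not stated. Whether B was treated differently is thus unknown, and a reading particular to B cannot be told apart from such a difference. Whether separate cultures were grown is not stated in the labels, so the differences between arrays may be technical. Precision is limited by there being only 3.

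Myeloma is a cancer of plasma cells, the antibody-secreting end stage of the B cell lineage. A plasma cell switches off the factors and surface receptors of a B cell, switches on PRDM1, XBP1 and IRF4, and widens its endoplasmic reticulum (ER) to fold and export immunoglobulin. Many myelomas carry a translocation that places an oncogene next to an immunoglobulin enhancer, and in JJN3 this oncogene is MAF. JJN3 is also known as a line that makes hepatocyte growth factor (HGF).

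Levels are MAS5 intensities on a linear scale, given in the order of arrays A, B and C, with means as mean ± SD (n = 3). Each of 19775 genes was read through the brightest of its probe sets that are annotated with exactly 1 gene. A percentile is the rank of a gene among these genes on an array, averaged over the 3 arrays. Brightness depends on the probes as well as on the transcript, so a rank orders signal and not amounts of RNA, and a gene with many probe sets has more chances to be read through a bright one. As a dim reference, 47 genes were chosen as restricted to other tissues, such as liver, lens, muscle or skin. A gene was called above the dim reference where its value on each array exceeded the 95th percentile of these genes. That limit was 408, 488 and 733 on arrays A, B and C. The reference gene KRT10 was itself above it, at 1583, 2174 and 1658, so it was not dim in these cells. By this measure 6212 of the 19775 genes, 31.4%, were above the dim reference, and every count below is to be read against that share. A gene that was not above it may still be transcribed, since its signal is only no brighter than that of the brightest reference genes.

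Array C had a narrower range of signal than the other arrays. The SD of log2 values over genes was 2.36 on A, 2.36 on B and 1.93 on C, and the median gene read 231.3, 248.9 and 371.1. Over all probe sets, which are not independent replicates, the Pearson correlation of log2 values was 0.951 between A and B and 0.889 to 0.891 with C. For actin the control probes at the 3' end read 1.05, 1.15 and 1.66 times those at the 5' end. A dim gene therefore tended to read brighter on C, and the limit of the dim reference was higher there as well.

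Read through the brightest probe sets, the lists of genes ranked as follows. Ribosomal proteins led with a median percentile of 99.8, followed by housekeeping genes at 99.7, glycolysis at 98.6, MHC class I at 97.0, the proteasome at 96.3 and ER folding at 94.4. At the other end stood markers of myeloid cells at 20.4, of erythroid cells and megakaryocytes at 24.8, of epithelium at 25.6, of endothelium at 25.9 and of T and NK cells at 32.7. The median over all genes was 48.4. The order among the brightest lists depended on the kind of probe set. Without probe sets whose names carry a suffix, and so with fewer genes measured, the median was 97.5 for the proteasome, 91.3 for ER folding, 84.2 for housekeeping genes, 74.1 for glycolysis, 71.0 for MHC class I and 68.5 for ribosomal proteins.

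**Figure D1:**
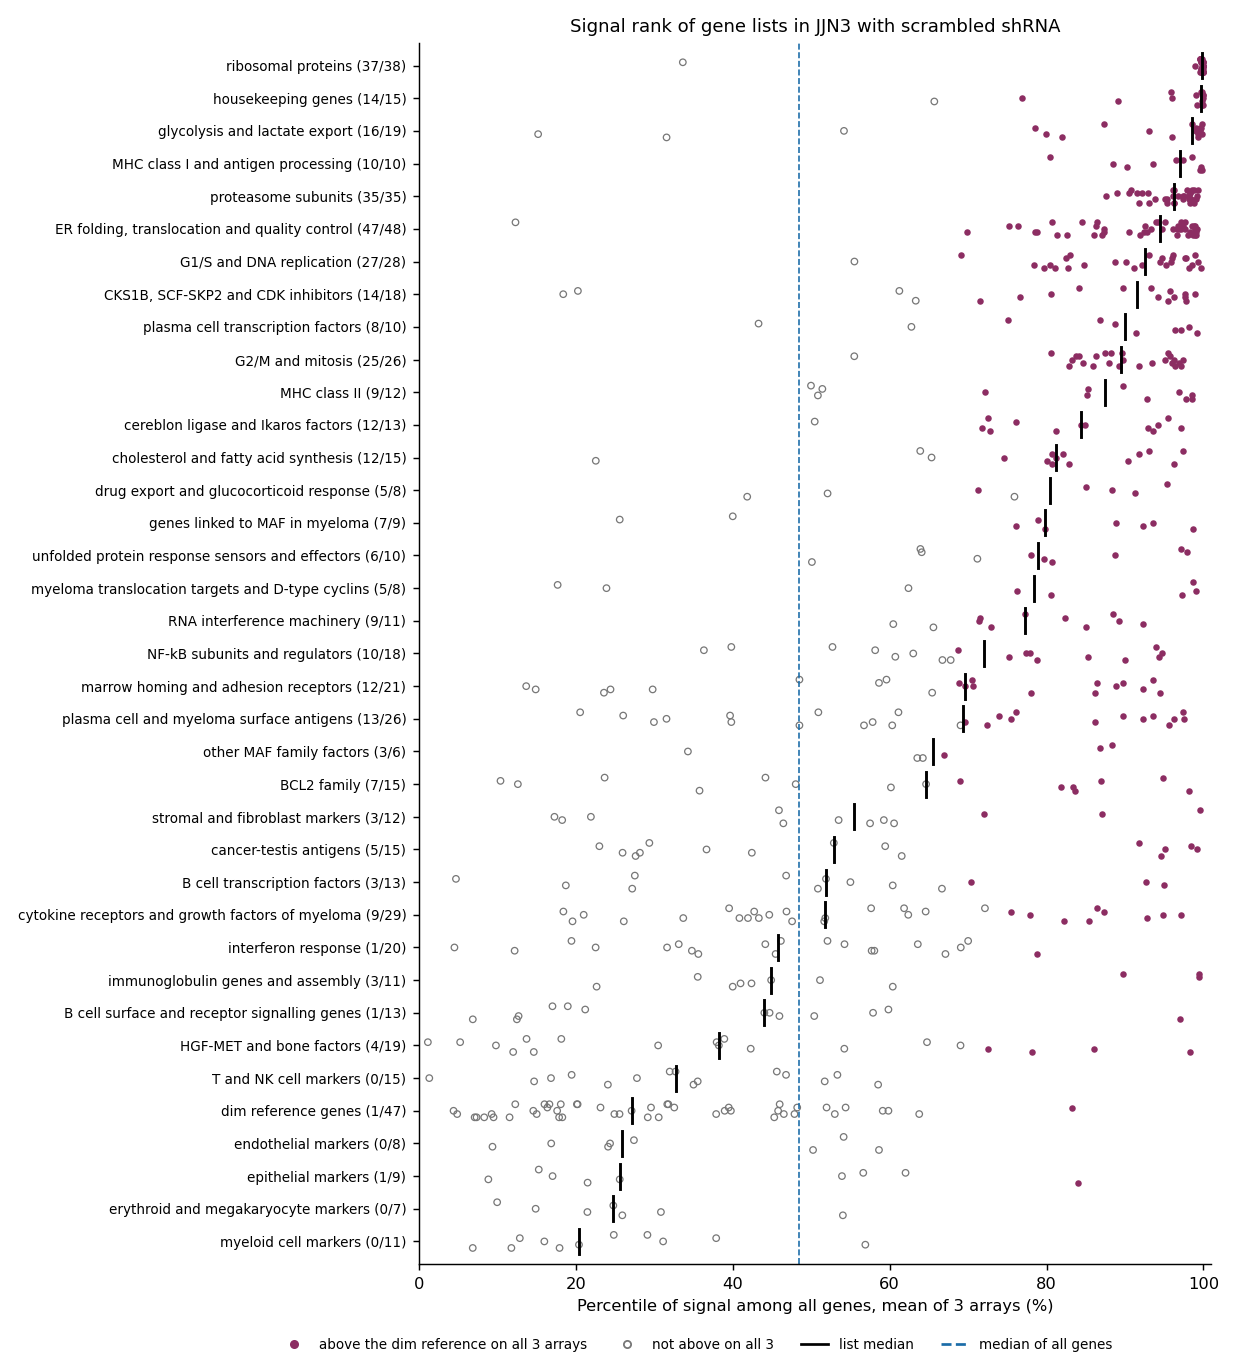
Percentile of signal of every measured member of 36 gene lists and of the dim reference genes, as the mean over the 3 arrays; filled points were above the dim reference on all arrays, open points were not, bars are list medians and the dashed line is the median of all genes. The counts in brackets are members above over members measured, from 37 of 38 ribosomal proteins down to 0 of 11 myeloid markers.

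The 30 genes of highest mean signal were mostly parts of the ribosome. They included 20 genes with the symbol of a ribosomal protein. These were led by RPS10 at 27511, 28261 and 37565, RPL8 at 27371, 27651.5 and 35904 and RPS16 at 26704, 26297 and 31988. FAU, which encodes a ribosomal protein fused to a ubiquitin-like one, was not in that count. The others were the elongation factor EEF1A1, the actin ACTB, the prolyl isomerase PPIA, the tubulin TUBA1B, TPT1, HUWE1 and the respiratory chain genes COX2, COX6C and ND4. Of these, COX2 and ND4 lie on the mitochondrial genome. The ribosomal genes not yet named were RPS19, RPS6, RPS23, RPL7, RPL37A, RPS3, RPL31, RPS15, RPS21, RPL9, RPL41, RPL37, RPLP1, RPS27, RPL30, RPS12 and RPL10A. Of the 30 probe sets, 25 had a name ending in _x_at or _s_at, classes whose probes can bind several related transcripts. HUWE1, a ubiquitin ligase, read 21736, 22563 and 27899 through such a probe set, while another HUWE1 probe set read 4154, 4319.6 and 3516 and the dimmest 44.1, 16.2 and 90.4. Its place among the brightest genes therefore rests on 1 probe set of 5.

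Of the measured ribosomal proteins on the list, 37 of 38 were above the dim reference, and the exception was RPLP2, a protein of the ribosomal stalk. Both RPLP2 probe sets annotated with that gene alone were dim, the brighter at 107, 109 and 197. Probe sets annotated with several genes were not read, so this does not show that RPLP2 is weakly expressed. Another 16 of the 54 listed genes had no value for want of such a probe set. Among the housekeeping genes 14 of 15 were above. Besides the genes already given, UBB, B2M, EEF2, YWHAZ and TFRC lay above percentile 99, HPRT1 at 96.0, SDHA at 95.9, GUSB at 89.2 and POLR2A at 76.8. TBP, the TATA-binding protein, read 589, 672 and 711 and stayed under the limit of array C.

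The immunoglobulin genes split sharply between a bright light chain and dim heavy chains. IGKC, the kappa constant region, read 14403, 15995 and 18036 (mean 16145 ± 1821, percentile 99.5). JCHAIN, which joins the units of polymeric IgA and IgM, read 15689.9, 13131 and 16370.3 (percentile 99.4), and MZB1, an ER cochaperone of immunoglobulin assembly, read 2655, 3429 and 2403 (percentile 89.7). These 3 genes were the only ones of the 11 measured that were above the dim reference, and each was bright on all 3 arrays. IGKC had 8 probe sets, of which 2 were above and the dimmest read 8.3, 5.2 and 28.5, and probes for rearranged variable regions differ in which chains they can bind. Among the heavy chains, IGHM read 243, 79.5 and 476, IGHG1 196, 222 and 188, IGHD 179, 67.8 and 229.8 and IGHA1 150.5, 36.1 and 65.4. The lambda gene IGLC1 read 60.2, 188 and 409 and the lambda-like genes IGLL5 and IGLL1 117, 251 and 749.8 for the former and 526, 157 and 103 for the latter. IGLL5 passed the limit only on C and IGLL1 only on A. PIGR, the receptor that carries polymeric immunoglobulin across epithelium, read 309, 283 and 1026 and passed the limit only on array C. IGHA1 was measured through 2 probe sets, and probe sets shared between heavy chain genes were left out, so these values do not settle which heavy chain the cells make.

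The transcription factors of the plasma cell were bright, and most of those of the B cell were not. Of the plasma cell factors 8 of 10 were above the dim reference, with a median percentile of 90.01. POU2AF1, a coactivator of octamer-binding factors at immunoglobulin promoters, read 12371, 11471 and 14602 (percentile 99.1). IRF4, on which myeloma cells depend for survival, read 10257, 7988 and 7783 (percentile 98.1). XBP1, the factor that widens the secretory pathway, read 7508, 7779 and 5375 (percentile 97.1). ELL2, an elongation factor that favours the secreted form of immunoglobulin heavy chains, read 6043, 6622 and 5375. PRDM1, the repressor that closes the B cell programme, read 3293, 3693 and 2724 (percentile 91.3), and its 3 probe sets spanned 1.92 log2 units. ATF6 read 3063.5, 3125.5 and 1903, MEF2C 2745, 2793.5 and 1580.4 and CREB3L2 1270.0, 1064 and 1004, each above the limit on every array. BHLHA15, a factor of secretory cells, read 606, 509 and 582 and missed the limit of array C, and ZBTB20 read 218, 194 and 216, below it on all 3.

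Of the B cell factors 3 of 13 were above the dim reference, with a median percentile of 51.9, close to that of all genes. TCF3, which encodes the E2A proteins, read 4096, 5565 and 4990.2, ETS1 3140.5, 3649.5 and 4349 and BACH2, a repressor of PRDM1, 888, 901 and 783. TCF3 had 14 probe sets with mean signals 6.55 log2 units apart, of which 5 were above. PAX5, the factor that holds B cell identity, read 42.9, 98.0 and 183.5 (percentile 27.2), EBF1 123, 94.8 and 81.8 and SPI1 11.5, 7.7 and 48.4 (percentile 4.70). BCL6, of germinal centre cells, read 342.5, 808 and 455 and FOXO1 859, 1100.5 and 441, so that each exceeded the limit on some arrays only. IRF8, SPIB, POU2F2, ID3 and CIITA were below it on all 3 arrays, at percentiles from 18.7 for ID3 to 55.0 for IRF8.

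MS4A1, which encodes the B cell antigen CD20, was the exception among the surface and signalling genes of B cells. It read 5426, 7996 and 7216 (mean 6879 ± 1318, percentile 97.0), and all 4 of its probe sets were above the dim reference on all 3 arrays, the dimmest at 791, 1278 and 1266. It was the only one of the 13 measured genes above. CD79A and CD79B, the signalling chains of the B cell receptor, read 366, 333 and 583 for the former and 362, 255 and 928 for the latter. CD22 read 331, 94.0 and 394, CD24 191.5, 223 and 251, CD37 62.4, 52.5 and 103 and the kinase BTK 36.9, 35.0 and 44.2. BLNK, SYK, CR2, BLK, CXCR5 and FCER2 lay at percentiles from 6.85 for FCER2 to 50.4 for BLNK. RNA was taken from the whole culture, so strong expression in a few cells and weak expression in all of them cannot be told apart for any gene here.

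**Figure D2:**
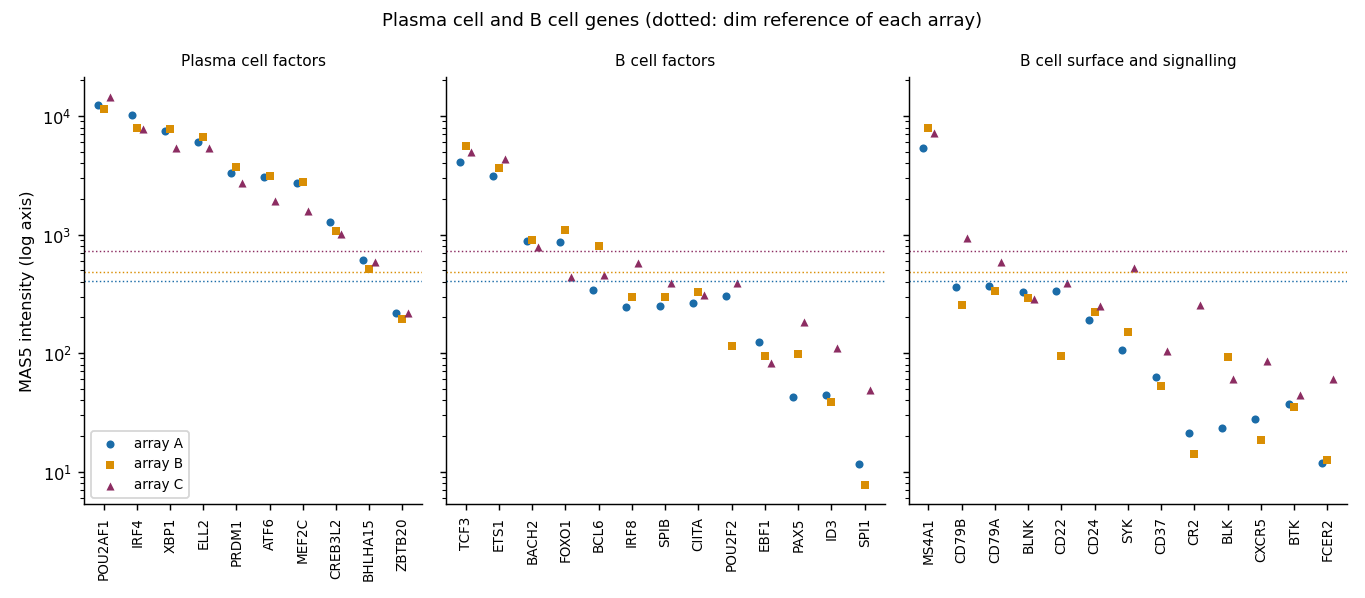
MAS5 intensity on a log axis of the measured plasma cell factors, B cell factors and B cell surface and signalling genes on arrays A, B and C, ordered by percentile, with the limit of the dim reference of each array as a dotted line (408 on A, 488 on B and 733 on C). In all, 8 of 10 plasma cell factors, 3 of 13 B cell factors and 1 of 13 surface genes, MS4A1, lie above all 3 limits.

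The surface antigens by which myeloma is recognised and treated divided into bright and dim ones. Of 26 genes, 13 were above the dim reference, with a median percentile of 69.3. CD47, the signal that holds off phagocytes, read 8083.5, 7659.6 and 6658, and CD59, an inhibitor of complement, 7390.2, 8419 and 6174. TNFRSF17, which encodes BCMA, the receptor for APRIL and BAFF that is a target of antibodies and engineered T cells, read 6251, 6674 and 4695 (percentile 96.3) through its only probe set. BST2, also called tetherin, read 4721, 6412 and 4691, and the integrin chains ITGB1 and ITGB7 read 5125, 4611.5 and 2816.5 for the former and 3218, 3938 and 3415 for the latter. These were the 6 brightest antigens, and each was above the limit on every array.

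SDC1, which encodes the plasma cell marker CD138, was far lower in rank. It read 1242, 828 and 552 (percentile 69.0), above the limit on A and B and below it on C, and its other probe set read 276.5, 215 and 58.4. The 4 antigens of lowest percentile were TNFRSF13C, the BAFF receptor, at 63.4, 35.0 and 455, CD200 at 66.2, 158 and 132, SLAMF7 at 63.2, 82.5 and 145 and LY9 at 39.0, 39.0 and 153. SLAMF7, a target of therapeutic antibodies, was dim in all 3 of its probe sets. CD44, a hyaluronan receptor, read 534, 1032 and 944 through the brightest of 13 probe sets, the only one above on all arrays. CD48 read 1094, 1029.5 and 1006, CD9 271, 567 and 739.5 and PTPRC, the leukocyte antigen CD45, 451, 567 and 322, and the probe sets of each were more than 3 log2 units apart. The antigens that follow were chosen after their values were seen. CD38, a target of therapeutic antibodies, read 377, 661 and 366 (percentile 57.8) and was above the limit only on B. GPRC5D, another target of engineered T cells, read 571, 483 and 465 and was above only on A. CD28 read 1239.7, 1459 and 908, KIT 1237, 1113 and 1045 and CD70 1039, 818 and 1007, all above, while FCRL5 read 202, 217 and 504 and CD27 161, 118 and 268.

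MAF, MYC and CCND2 were the bright genes among the targets of myeloma translocations and the D-type cyclins. MYC read 13003, 10918 and 12495 (mean 12139 ± 1087, percentile 99.02) through its only probe set. CCND2 read 11326, 10638.5 and 8517 (percentile 98.6) and MAF 6289, 8006 and 7491 (mean 7262 ± 881, percentile 97.3). MAF had 6 probe sets, of which 3 were above, at 3750.5, 4412 and 3878 for the next brightest and 1253.5, 1748.5 and 959 for the third, and the dimmest lay below every limit. CCND3 read 1995, 1585 and 1137 and NSD2, a histone methyltransferase, 1259, 1314 and 1001, and both were above the limit on every array. FGFR3 read 98.9, 43.3 and 114 and CCND1 54.3, 22.3 and 112, both dim on every array (percentiles 23.9 and 17.7). WWOX, within which the breakpoints near MAF often lie, read 518, 448 and 675 and passed the limit only on A. The bright members thus included MAF and excluded FGFR3 and CCND1, the partners of other myeloma translocations.

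Genes linked to MAF in myeloma were bright more often than not, with 7 of 9 above the dim reference. Besides CCND2 and ITGB7 they were DEPTOR, an inhibitor of mTOR kinase, at 4692, 3854 and 3590.3, the chemokine receptor CCR1 at 2996, 3100.3 and 2016, the small GTPase RND3 at 1250.2, 2008 and 1217, the kinase NUAK1 at 1208, 1649.7 and 1308 and ARID5A, an RNA-binding protein, at 1067, 1305 and 1145. CX3CR1 read 223, 109 and 228 and CDH1, E-cadherin, 48.8, 66.0 and 190.5, both below the limit on all arrays. DEPTOR rested on 1 of 2 probe sets, since the other read 14.7, 59.3 and 103.5. Among other factors that share or pair with the MAF leucine zipper, NFE2L2 read 2792, 2964 and 1981, NFE2L1 2875.5, 2250.5 and 1846 and MAFG 444, 613 and 1108, all above. BACH1 read 570.3, 998 and 461, MAFF 359, 1834 and 375.5 and NRL 108, 24.9 and 485. MAFF was above the limit on B only, BACH1 on A and B, and NRL on none.

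HGF was the brightest of the HGF-MET and bone factors, and most others were dim. It read 9745, 8948 and 9005 (mean 9233 ± 445, percentile 98.3) and all 5 of its probe sets were above the dim reference, from 5497, 3151.5 and 3586 for the dimmest by mean. MET, the receptor of HGF, read 1091, 964 and 867 (percentile 72.5), above the limit on every array through 1 of 4 probe sets. HGFAC, which activates HGF outside the cell, read 20.9, 17.4 and 65.5, and the inhibitors of its activation SPINT1 and SPINT2 80.0, 246 and 244 for the former and 32.4, 27.0 and 88.5 for the latter. ST14, another activating protease, read 802, 474 and 646 and passed only on A. The ligand, its receptor and the proteases that process it thus stood at very different ranks.

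Only 4 of 19 genes of that list were above the dim reference, HGF, SFRP2, VEGFA and MET. SFRP2, a secreted antagonist of WNT signals, read 2283, 2309 and 1902 with both probe sets above, and VEGFA, the angiogenic factor, 1664, 1533 and 938. DKK1, a WNT antagonist that myeloma cells secrete in bone disease, read 349.8, 334 and 385 (percentile 54.2), below the limit on all arrays. TNFSF11, which encodes RANKL, read 35.5, 27.6 and 141, and its decoy receptor TNFRSF11B 18.1, 24.4 and 85.8. FRZB, PLAU, CCL4, CCL20, INHBA, SOST and IL3 were also below the limit, at percentiles from 1.12 for IL3 to 42.3 for CCL4.

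**Figure D3:**
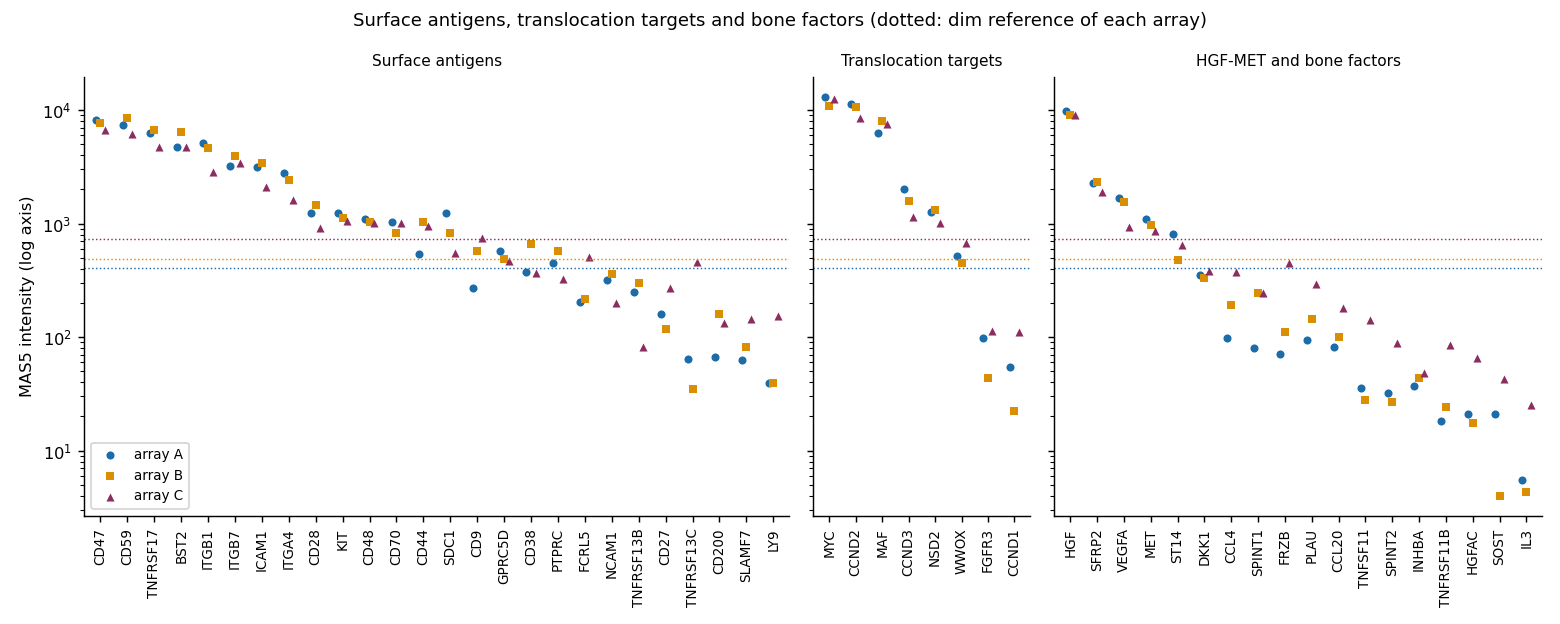
MAS5 intensity on a log axis of surface antigens, translocation targets with D-type cyclins, and HGF-MET and bone factors on arrays A, B and C, ordered by percentile, with the limit of the dim reference of each array as a dotted line. The lowest reading of MAF, 6289 on array A, lies far above all 3 limits, and the highest reading of FGFR3, 114 on array C, lies below them.

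In the list of cytokine receptors and growth factors, 5 of the 6 brightest genes were receptors or signalling proteins and the 4 dimmest were ligands. Of 29 genes 9 were above the dim reference, which at 31.0% is close to the share of all genes. IL2RG, the common chain of several interleukin receptors, read 7349.7, 6789 and 6575, IL6ST, the signalling chain of the IL-6 receptor, 4586, 5175 and 4409 and the kinase JAK1 3785, 4219 and 3175. The kinase TYK2 read 1683, 2616.5 and 2937, the factor STAT3 2232, 2813 and 1738 and the ligand TGFB1 2612, 1744 and 1933. The 4 dimmest were the ligands IL6 at 106, 66.7 and 109.8, LIF at 77.4, 47.5 and 88.4, TNFSF13, which encodes APRIL, at 53.6, 51.3 and 92.2 and OSM at 29.7, 71.6 and 86.7. IGF1, a growth factor of myeloma cells, read 1817, 1750.2 and 1489 with 3 of 5 probe sets above, and its receptor IGF1R read 1232, 1073 and 690.3 and missed the limit of array C. IL6R, the ligand-binding chain of the IL-6 receptor, was chosen after its values were seen and read 264.5, 245 and 109, below the limit on all 3 arrays.

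The machinery that brings proteins into the ER and folds them was bright almost throughout. Of 48 measured genes 47 were above the dim reference, 32 of them at or above percentile 90, with a median percentile of 94.4. The brightest were RPN2 of the oligosaccharyltransferase, SRP14 of the signal recognition particle, SSR1 of the translocon, P4HB, a protein disulfide isomerase, SPCS1 of the signal peptidase and CANX, the lectin chaperone calnexin. RPN2 read 13546, 13621 and 11904, SRP14 12580.0, 12377 and 11914 and P4HB 14124, 11576 and 9772. HSPA5, the chaperone BiP, read 10754, 11235 and 8328 (mean 10105.5 ± 1558, percentile 98.6). At the lower end FKBP2 read 1174.5, 1234 and 1135, DNAJB9 1072.5, 1394 and 947 and EDEM1 813, 756 and 888. ERO1B, a thiol oxidase, read 19.3, 13.1 and 114.5 and was the only member below the limit, in both its probe sets. Its paralog ERO1A, named after its values were seen, read 3687, 4291 and 2994.

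Promoters of this list were searched for the ER stress element, to which ATF6 and XBP1 bind with NF-Y. The element was spelled CCAAT, 9 bases of any kind and CCACG, and was sought on both strands from 250 bases before to 50 bases after each start in RefSeq promoters of GRCh38.p14. It was found in 7 of 46 genes of the list, 15.2%, and in 25 of all 27305 genes, 0.0916%. The elements of these 7 genes and of XBP1 are shown because they are the letters that the match rests on, with the ends that were searched in capitals.
HSPA5, chr9:125241391-125241409, minus strand: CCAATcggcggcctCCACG
HSP90B1, chr12:103930216-103930234, plus strand: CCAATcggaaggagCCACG
HSP90B1, chr12:103930321-103930339, minus strand: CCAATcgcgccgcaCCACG
CALR, chr19:12938384-12938402, minus strand: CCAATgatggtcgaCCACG
CANX, chr5:179698778-179698796, plus strand: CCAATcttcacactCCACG
PDIA6, chr2:10812853-10812871, minus strand: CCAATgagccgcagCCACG
CRELD2, chr22:49918554-49918572, minus strand: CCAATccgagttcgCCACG
ERO1B, chr1:236282183-236282201, plus strand: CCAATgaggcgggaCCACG
XBP1, chr22:28800603-28800621, minus strand: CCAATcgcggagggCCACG

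Of these 8 genes 7 were bright and 1 was dim. As 47 of 48 measured genes of the ER list were above the dim reference, this count says little about the element. HSPA5, CANX, PDIA6, XBP1 and CALR lay at percentiles 98.6, 98.96, 98.3, 97.1 and 96.2, HSP90B1 at 92.8 and CRELD2 at 81.3. ERO1B holds the same letters and lay at 12.3, so a match did not go with a bright reading in each gene. Over all measured genes with a promoter window, 9 of 5238 above the dim reference held the element, 0.172%, and 9 of 10146 of the others, 0.0887%. The 9 genes above include the 7 bright genes just named, so the higher share rests mostly on them. In HSPA5 it lies 66 bases before the start, within 200 bases at chr9:125241344-125241543 on the minus strand, in which the element stands in capitals.
HSPA5 promoter: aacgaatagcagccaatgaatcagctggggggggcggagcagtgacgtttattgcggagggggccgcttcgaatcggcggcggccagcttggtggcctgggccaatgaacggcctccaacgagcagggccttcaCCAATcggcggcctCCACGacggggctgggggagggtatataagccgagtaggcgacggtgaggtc

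Sensors and effectors of the unfolded protein response were less uniform than the folding genes. Of 10 genes 6 were above the dim reference. ATF4, the factor translated when protein synthesis is checked, read 8288, 9207.5 and 6803.5, and XBP1 and ATF6 were given above. PPP1R15A read 1527, 2231.5 and 1099, TRIB3 1358, 1620.4 and 1351 and ASNS, asparagine synthetase, 1368, 1376 and 1156. EIF2AK3, which encodes the sensor PERK, read 912, 1246 and 676 and the proapoptotic factor DDIT3 293, 596 and 989, each above the limit on some arrays only. CHAC1, a target of ATF4, read 611, 353 and 884, also above on some arrays only. ERN1, which encodes the sensor IRE1 that splices XBP1, read 277, 457 and 227, below the limit on all 3. All 6 genes that were above read highest on array B and lowest on C. Over all genes above the dim reference, 33.1% were highest on B and 52.1% lowest on C. After quantile normalization, which gives the arrays the same distribution, the 6 genes were again highest on B and 5 were lowest on C, against 28.6% and 33.7% of all genes above the dim reference. B is the array with the word poly in its title, and any part of this in the order was not tested.

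The proteasome was bright throughout, with all 35 measured genes above the dim reference and 33 at or above percentile 90. PSMB4 of the catalytic core read 15148, 14204 and 13323 and PSMB2 13010.5, 12996.5 and 12881. PSMA2 of its outer rings read 13272, 12253 and 11173, PSMA1 11286.5, 10949.8 and 11208, PSMD4, a ubiquitin receptor, 10112, 11013 and 11157, and the assembly factor POMP 10228, 9447 and 11157. The lowest were the ATPase PSMC4 at 3504.5, 2962 and 2758, PSMF1 at 3713, 3057.5 and 2401, PSMD3 at 4525, 2700.5 and 1759 and the activator PSME4 at 2426, 2645 and 2089. Even PSME4 lay at percentile 87.5. PSMD3 was uneven among these, bright on A and lower on C.

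Genes of DNA replication and of mitosis were bright almost throughout. Of the G1/S and replication genes 27 of 28 were above the dim reference, and of the G2/M genes 25 of 26, with median percentiles of 92.6 and 89.4. TYMS, thymidylate synthase, read 19237, 17633 and 20315, the helicase subunit MCM3 13716, 14161 and 13301.5, MCM2 9833, 11151 and 9163 and MCM6 9093, 8846 and 7989, and the ribonucleotide reductase subunits RRM2 and RRM1 11299, 12872.5 and 10407 for the former and 8131, 7708 and 7714.5 for the latter. Lower in rank, the cyclin CCNE1 read 1222, 1208 and 1950.5 and POLA1, a DNA polymerase subunit, 1431, 1316 and 1246, and E2F1, the factor that drives these genes, read 655, 665 and 1053 (percentile 69.1). CLSPN, a checkpoint adaptor, read 478, 629 and 252 and was the only gene of its list not above.

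Among the mitotic genes PTTG1, which encodes securin, read 6577, 7725 and 7469, UBE2C 7324, 6823.5 and 6299, the spindle factor TPX2 6675, 7451 and 5649.7, CDK1 6339.6, 5854 and 5622, BUB1B 6451, 5307 and 5662 and cyclin B1 6508, 6327 and 4380.2. The lowest were the kinesin KIF11 at 1920.3, 2341 and 1317, TTK at 1984, 2359 and 1194, the factor FOXM1 at 1702, 1928 and 1089 and the phosphatase CDC25C at 497, 545 and 271, the only gene of its list not above. Of the 25 that were above, 20 (80.0%) read lowest on array C, against 52.1% of all genes above the dim reference. After quantile normalization 14 (56.0%) did, against 33.7%.

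The promoters of mitotic genes often hold CCAAT boxes and the CHR, which is bound by the DREAM and MMB complexes and was spelled TTTGAA. Searched on both strands in the same windows after the expression values were known, CCAAT was found in 18 of 20 genes of the list, against 39.7% of all genes. The share was the same in MHC class II, 9 of 10, close to it in cholesterol and fatty acid synthesis, 12 of 14, and lower in the other lists. The CHR was found in 13 of 20, against 18.2% of all genes. Among small lists it was as frequent in drug export and glucocorticoid response, 4 of 6, and in plasma cell factors, 5 of 8. CDC25C, the member that was not above, holds both. CCNB2, cyclin B2, is shown because 3 CCAAT boxes and the CHR fall into 150 bases before its start, at chr15:59104996-59105145 on the plus strand, with these letters in capitals. It read 4872, 5102 and 4490.4 (percentile 95.1), within a narrow range on the 3 arrays.
CCNB2 promoter: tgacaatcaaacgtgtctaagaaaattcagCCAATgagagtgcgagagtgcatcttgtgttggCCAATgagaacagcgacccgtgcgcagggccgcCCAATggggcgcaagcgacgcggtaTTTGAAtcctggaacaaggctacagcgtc

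CKS1B, the gene that the study's other hairpin targets, lay at percentile 97.8 here, and the ligase subunits it works with were bright as well. SKP1 read 11739.5, 11387 and 11977, SKP2, the F-box protein that recruits the inhibitor CDKN1B, 5661, 5439 and 5027, CUL1 4559, 4039.6 and 3304, RBX1 5681, 5387 and 4254 and the paralog CKS2 6955.5, 8978 and 7193. The kinases CDK6 and CDK4 read 7965, 8017 and 7163 for the former and 6471, 5494 and 5734 for the latter. Of the inhibitors, CDKN2A, which encodes p16 and ARF, read 3980.5, 4061 and 5392 (percentile 94.2), CDKN1B, which encodes p27, 2709.6, 1491 and 1728 and CDKN1C 698, 687 and 1434, all above the dim reference. CDKN1A, the p53 target p21, read 488.5, 554 and 527 and missed the limit of array C. CDKN2B and CDKN2D read 70.6, 81.9 and 29.9 for the former and 43.3, 138 and 39.5 for the latter, dim on all arrays. CDKN2A thus stood at a far higher rank than its neighbour CDKN2B, though its 3 probe sets were 5.82 log2 units apart. RB1 read 3167, 3177 and 2234 and its relatives RBL2 and RBL1 1356, 1028 and 1238 for the former and 619, 549 and 589 for the latter, and MDM2, which degrades p53, 1499, 1755 and 1330.3.

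In the BCL2 family the brightest survival gene was MCL1, on which many myeloma cells rely, at 8393, 8692 and 8939 (percentile 98.1). BCL2 read 1832, 1639 and 1938 through 1 of 4 probe sets, while BCL2L1, which encodes BCL-XL, read 590.3, 476 and 789 and missed a limit. BCL2L2 was dim at 173, 191 and 290.1, as was BCL2A1 at 54.2, 6.3 and 52.0. Among the death-promoting members PMAIP1, also called NOXA, read 5435, 6077.5 and 3340.5, BCL2L11, also called BIM, 1955, 2899 and 2058, BID 1564, 1594 and 2380.0, BMF 806, 759.8 and 779.7 and the pore-forming BAK1 1699.8, 1566 and 1640.2. The other pore-forming gene BAX read 398, 218 and 25.7, below the limit on every array, with its second probe set at 283, 208 and 25.6. BAD, BIK, HRK and BOK were below the limit on all arrays through their brightest probe sets, at percentiles from 12.6 for BOK to 60.2 for BAD. Another probe set of BAD read 445, 527 and 381, above the limit on A and B. In all 7 of 15 members were above the dim reference.

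NF-kB genes held 10 of 18 members above. RELA read 4723, 4491 and 4619, NFKB1 3192, 2625 and 2817 and RELB 615, 1014 and 759.8, while NFKB2 read 1199.7, 906 and 204 and REL 431.5, 377 and 266. NFKB2, which makes p100 and p52 of the alternative pathway, was bright on A and B and dim on C through that probe set, whereas another read 419.9, 413 and 386. The feedback inhibitors NFKBIA and TNFAIP3, themselves targets of NF-kB, read 3357, 6108 and 4014 for the former and 4498, 4982 and 3712.5 for the latter. Of the genes that restrain the pathway, TRAF3 read 1685, 1470.4 and 1054, BIRC2 1943, 2628 and 1698 and CYLD 1261, 1249.9 and 1353. Of the IKK complex, CHUK read 1273, 1325 and 1159.9 and IKBKG 940.0, 1060.0 and 1357. MAP3K14, which encodes the kinase NIK, read 544, 615.5 and 323, IKBKB 768, 866 and 639.5, NFKBIE 900.0, 711 and 582 and the receptor CD40 484, 445 and 764, and each of these was above the limit on 2 of the arrays. LTBR read 215, 61.7 and 229 and TNFRSF13B, which encodes TACI, 247, 299 and 81.4.

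MHC class I genes were bright without exception among the 10 measured. B2M read 19858, 19319 and 22102, HLA-C 18821, 17416 and 19765.5, HLA-B 15661, 16295 and 17648, HLA-G 9365, 10072 and 11409, HLA-F 8000.4, 7117 and 6997 and HLA-E 3951, 4137 and 3901. The peptide transporters TAP1 and TAP2 read 2791.5, 2649.5 and 3517 for the former and 2966, 2614 and 2138 for the latter, TAPBP 5541, 5690.1 and 7617 and the activator NLRC5 1217, 1513 and 1785. The HLA genes are near-identical over long stretches and all 5 were read through _x_at probe sets, so their individual levels are uncertain.

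MHC class II genes were bright too. After quantile normalization their median log2 difference between arrays was wider than that of any other list with at least 5 members above the dim reference. HLA-DRA read 13366, 11197 and 6876, HLA-DRB1 12102, 11005 and 7427, the invariant chain CD74 11193, 7657 and 6245.5 and HLA-DPA1 9333, 6963 and 4517. HLA-DQB1 read 4786, 4160.0 and 2679, HLA-DQA1 3941, 2882 and 2059.6, HLA-DPB1 3107, 2526 and 1232 and HLA-DMA 2461, 2241 and 1555. Each of these was highest on A and lowest on C, and HLA-DMB at 1021, 876 and 933 was highest on A and lowest on B. All 9 members above the dim reference were thus highest on A and 8 were lowest on C, against 37.3% and 52.1% of all genes above it. With quantile normalization these counts were again 9 and 8, against 25.5% and 33.7%. The median difference of an array from the mean of the others was then 0.51 log2 units for A, 0.12 for B and -0.485 for C. HLA-DOA, HLA-DOB and CIITA, the activator of class II transcription, were not above, with CIITA at 264.5, 328.5 and 311. The narrower range of signal on array C and its higher 3' to 5' ratio of actin went with this order, and their part in it was not tested.

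Genes of cholesterol and fatty acid synthesis were highest on array C more often than all genes were, under both scalings. Of 15 measured genes 12 were above the dim reference. ACLY, which makes cytosolic acetyl-CoA, read 7034, 8466 and 6629, SQLE 5569.7, 6269 and 5669, FDPS 3498, 3498 and 4669, INSIG1 4347, 2572 and 3582 and FASN 3231, 2454 and 3299.6. HMGCS1 read 1352, 1275 and 2037.5, DHCR7 1331, 1502 and 1895, SCD 1592, 1527 and 1839, IDI1 1576, 1453 and 1532, LSS 1493, 1484 and 1400.3 and MVK 977, 1081 and 1156. SREBF2, the main activator of this pathway, read 1809.8, 1758 and 1669 and SREBF1 569.7, 524 and 689, while ACACA read 618, 727 and 619.5 and MVD 148, 37.8 and 63.2. As deposited, 6 of the 12 were highest on C, against 29.6% of all genes above the dim reference. After quantile normalization 11 of the 12 were, against 45.8%, and the median difference of C from the mean of A and B was 0.325 log2 units.

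**Figure D4:**
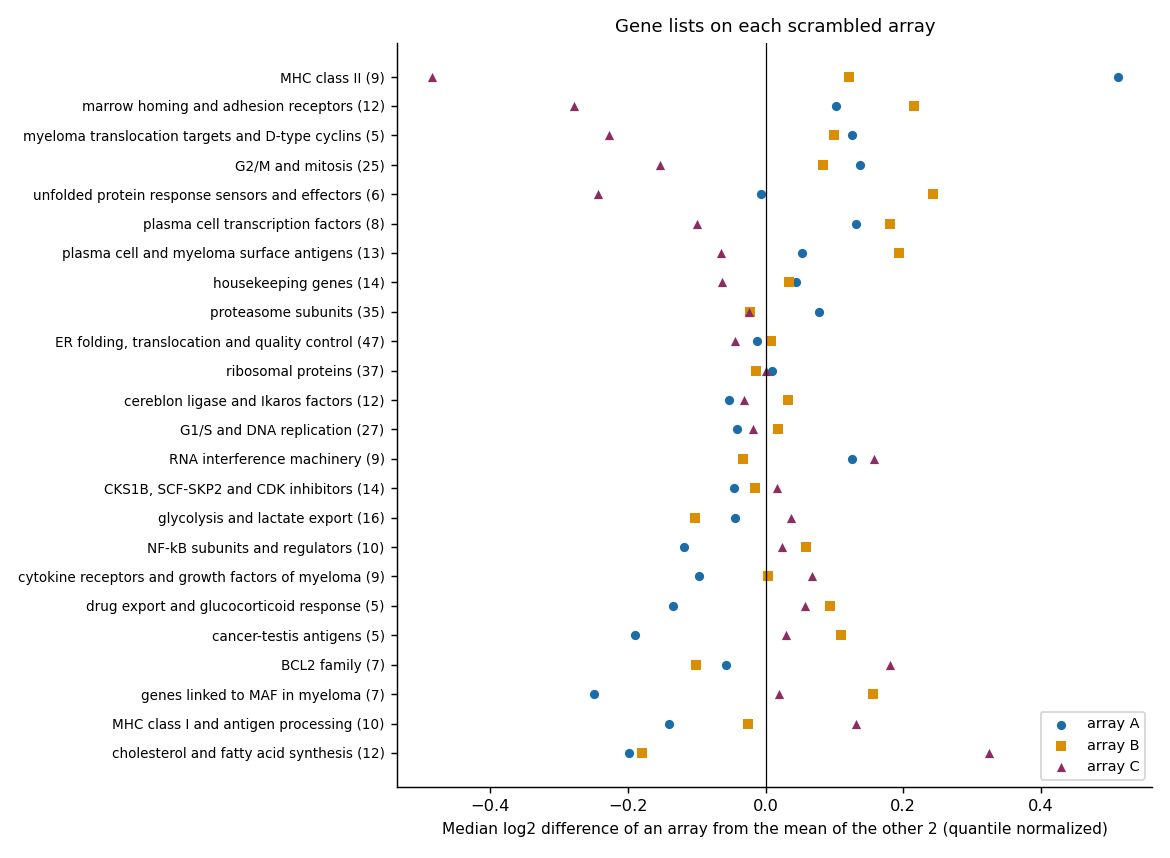
For each list with at least 5 members above the dim reference (number in brackets), the median over those members of the log2 difference between an array and the mean of the other 2, after quantile normalization. MHC class II spans 0.51 on array A to -0.485 on array C and cholesterol synthesis -0.20 on A to 0.325 on C. The ribosomal proteins lie at 0.01 on A, -0.01 on B and 0.00 on C. Quantile normalization gives the brightest genes similar values on every array, so small shifts of that list were partly fixed beforehand. As deposited, all 37 ribosomal proteins above the dim reference were highest on C, against 29.6% of all genes above it.

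Of the genes of glycolysis and lactate export 16 of 19 measured were above, with a median percentile of 98.6. Without suffixed probe sets 5 were above, with a median of 74.1, against a median of 87.0 for cholesterol and fatty acid synthesis, so the order of these lists turned around. GAPDH read 19463, 20382 and 24783, ENO1 20194, 19237 and 21905, LDHB 17811, 18482 and 19955, LDHA 17854, 16764 and 19706, ALDOA 16939, 16902.5 and 19164 and PKM 15061, 12754 and 13793. The hexokinase HK2 read 1259, 1273 and 1485 and HK1 464, 499 and 255, and the glucose transporters SLC2A1 and SLC2A3 read 1231, 1503 and 2354 for the former and 24.9, 28.5 and 109.6 for the latter. ENO2, the neuronal enolase, read 44.8, 159 and 205. The enolases and the glucose transporters thus divided, with ENO1 and SLC2A1 above and ENO2 and SLC2A3 dim on all 3 arrays. Of the hexokinases HK2 was above, and HK1 missed only the limit of array C.

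The cereblon ligase, which thalidomide analogues turn against Ikaros factors, was above the dim reference together with its main substrates. CRBN, the receptor of these drugs, read 1483, 1684 and 1523, DDB1 7843, 8501 and 4878, CUL4A 2059, 1875 and 1999 and CUL4B 1164, 1176 and 1151. IKZF3 read 1939.7, 1915.5 and 1863 (mean 1906 ± 39.3) and IKZF1 1049, 1015.5 and 897, both above the limit on each array, as were IKZF2 at 901, 942 and 914 and IKZF5 at 899, 1141 and 878. IKZF4 read 333, 338 and 254 and was the only one of the 13 measured genes not above. With the probe sets of each gene averaged, 6 of the 13 were above, against 4402 of all 19775 genes. The other substrates ZFP91 and CSNK1A1 read 4040.1, 4418 and 3605 for the former and 4004, 4493 and 3018 for the latter, and BSG, a partner of the lactate transporters, 6059, 4590.4 and 3090.4. IKZF1 rested on 1 of 9 probe sets.

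Receptors that hold plasma cells in the marrow were led by CXCR4, the receptor of CXCL12, at 5396, 6029 and 2972, with all 3 probe sets above. ITGB1, ITGB7, ICAM1 and CCR1 followed, and of 21 genes 12 were above. ICAM1 read 3131.5, 3445.5 and 2112 and ITGAL, an integrin chain that binds it, 2229.5, 2614.5 and 1841. The dimmest were ITGA5 at 39.5, 63.0 and 189, ITGB2 at 45.1, 6.4 and 362, VCAM1 at 32.2, 74.5 and 38.5 and ITGA6 at 64.8, 3.9 and 86.9. ITGAL was above while ITGB2, the chain it pairs with, was below the limit on all arrays. NCAM1, which encodes CD56, an antigen of many myelomas, read 318, 362 and 199.8 through the brightest of 7 probe sets and was not above. PECAM1 read 344.5, 359 and 632.5, also not above.

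Cancer-testis antigens, which normal tissue makes mainly in the germ line, fell into a bright and a dim group with none between percentiles 61.5 and 91.8. MAGEA6 read 13342, 13171 and 12764, MAGEA12 9326, 10137 and 9430.5, CTAG2 5071, 5323 and 4189, MAGEC1 4377, 4557 and 4601.5 and MAGEB2 3296, 3789.9 and 3035. These 5 were bright on each array and the other 10 were not above. MAGEA6, MAGEA12 and CTAG2 were read through _x_at probe sets, and each has near-identical relatives, so the signal may include them. MAGEA1 read 688, 547 and 439.9 and passed the limits of A and B. MAGEC2 read 119.9, 188 and 38.4, MAGEA4 146, 104 and 42.6 and PRAME 81.0, 137 and 292. PAGE5 at 240.5, 8.3 and 977 was bright only on C. DDX43, SSX1, CTCFL and PAGE1 lay at percentiles 59.4, 52.9, 29.4 and 27.6, and GAGE1 at 23.0.

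Of the genes of drug export and glucocorticoid response, ABCC1 read 3221, 3567 and 2859.5 and ABCG2 689, 1030.0 and 969, while ABCB1, which encodes P-glycoprotein, read 239.7, 205 and 159.6 and was dim on every array. NR3C1, the glucocorticoid receptor, read 1926.5, 2031 and 1992.5 with 3 of 5 probe sets above. Its targets FKBP5 and TSC22D3 read 5047, 5284 and 4509 for the former and 1164, 2343 and 676 for the latter, DPYSL2 2543, 2752 and 2278 and ANXA1 139, 559.5 and 424. TSC22D3 was highest on B and under the limit on C, and ANXA1 passed the limit only on B.

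Interferon response genes were dim, with 1 of 20 measured genes above the dim reference. The count was 3 without array A and 3 without array C, where fewer limits had to be passed, and 4 with the 90th percentile of the reference as the limit. That gene was IRF1 at 1069, 1901 and 1252, and the median percentile of the list was 45.8. IFIH1 and RIGI, which sense RNA in the cytoplasm, read 957, 1270.4 and 554 for the former and 378, 583 and 802 for the latter, IRF9 833, 963 and 665 and ISG15 400.2, 960.3 and 867.5. OAS2 read 196, 431 and 776, and the dimmest genes were OAS3 at 49.8, 45.0 and 159.8, RSAD2 at 98.6, 63.9 and 33.5, IFIT1 at 26.3, 8.3 and 109 and IFI44L at 21.6, 5.7 and 26.5. No array stood out as high across the list, whose median percentile was 45.1, 50.4 and 47.0 on A, B and C. No array of cells without a hairpin was used here, so a response to the vector cannot be told apart from the state of the line.

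The promoters of this list were searched for the interferon-stimulated response element, likewise after the expression values were known. Its core, spelled GAAA, 2 bases of any kind and GAAA on either strand, was found in 11 of 16 genes of the list, against 4.38% of all genes. It was also found in 5 of 8 MHC class I genes, all of which were bright. IFIT1 is shown because its promoter holds 2 such matches before a dim gene (percentile 12.2). The 150 bases lie at chr10:89392473-89392622 on the plus strand, and the capitals mark the element as it reads on that strand, with TTTC in place of GAAA.
IFIT1 promoter: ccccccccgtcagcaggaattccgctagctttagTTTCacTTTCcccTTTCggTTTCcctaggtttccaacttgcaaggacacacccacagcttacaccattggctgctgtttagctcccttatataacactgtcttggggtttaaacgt

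The machinery that an shRNA depends on was above the dim reference in 9 of 11 measured genes, read through their brightest probe sets. With the probe sets of each gene averaged, 3 of the 11 were above, against 4402 of all 19775 genes. XPO5, which exports hairpin precursors from the nucleus, read 3071, 2419.7 and 2647, DICER1, which cuts them, 2531.5, 2155 and 1515.5, and AGO2, the slicing Argonaute, 3111, 3478 and 1666. DROSHA, which acts before this on microRNA transcripts, read 3544, 3953 and 3135. AGO3 and AGO1 read 1039, 1156 and 823 for the former and 825, 769 and 1090.0 for the latter, and AGO4 437, 485 and 559, which passed the limit only on A. PRKRA, TNRC6A and TARBP2 were above, and TNRC6B at 627, 679 and 669 missed the limit of array C.

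Markers of other cell types were dim, with named exceptions. Of the T and NK cell markers 0 of 15 were above, from PRF1 at percentile 58.5 over TRAT1, CD8A, CD2, CD5, CD3E, CD3D, KLRD1, GZMB, CD4, CD7, KLRB1, CD3G and GNLY down to NKG7 at 1.30. Of the myeloid markers 0 of 11 were above, from S100A8 at 56.9 over ITGAM, CSF1R, FCER1A, MPO, LYZ, CLEC4C, S100A9, CD163 and ELANE down to CD14 at 6.84. Of the erythroid and megakaryocyte markers 0 of 7 were above, from HBB at 54.0 over ALAS2, ITGA2B, PF4, GP9 and EPB42 down to PPBP at 9.96. Of the endothelial markers 0 of 8 were above, from PECAM1 at 58.6 over TEK, ROBO4, KDR, VWF, CLDN5 and EMCN down to CDH5 at 9.36. The T cell receptor chain CD3E read 110.2, 306 and 98.7 and CD14, of monocytes, 10.9, 8.2 and 73.3. Stromal markers had 3 of 12 above, the intermediate filament VIM at 16195, 16737 and 19155, which lymphoid cells also make, FN1, fibronectin, at 1291, 3792.5 and 2775, and the smooth muscle actin ACTA2 at 760.5, 935 and 1084.5. The stromal collagens were not above, with COL1A1 at 353, 551.5 and 412, COL1A2 at 359.8, 219.9 and 462.5 and COL3A1 at 32.3, 20.4 and 262, nor were CXCL12, LEPR, DCN, LUM, THY1 and PDGFRB. FN1 was uneven, lowest on A in each of its 4 probe sets that were above. EPCAM, an epithelial adhesion molecule, was above at 2188, 1966 and 1541.5 (percentile 84.0) while the keratins KRT8, KRT18, KRT19, KRT5 and KRT14, CDH1, CLDN4 and MUC1 were not. Without array C the epithelial count was 2 instead of 1, with KRT18 above on A and B. The sum over the epithelial list was 3665, 3368 and 3826, over the stromal list 20386, 23632 and 26113 and over the myeloid list 1134, 901.5 and 1841. Against the label of a myeloma line, 8 of 10 plasma cell factors were above the dim reference, and IGKC and JCHAIN were bright. The other immunoglobulin genes, apart from MZB1, made up 8 of 11 measured and were not above. Of 26 surface antigens 13 were above, among them TNFRSF17, whereas SDC1, CD38, SLAMF7, GPRC5D and FCRL5 were not above on all arrays. The B cell antigen gene MS4A1 and 9 of 12 MHC class II genes were also above.

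The 3 arrays agreed closely for bright genes and poorly for dim ones, and array C stood furthest from the others. Over all genes the median SD of log2 values was 0.419 with 3 arrays, 0.394 without A, 0.408 without B and 0.197 without C. With all 3 arrays it was 0.163 for genes at or above percentile 90, 0.20 for genes above the dim reference and 0.607 for the rest. A range of more than 1 log2 unit was found in 3.51% of genes above the dim reference and in 57.7% of the others. Values of dim genes above, such as those of SLAMF7 or IGHM, carry this larger error.

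**Figure D5:**
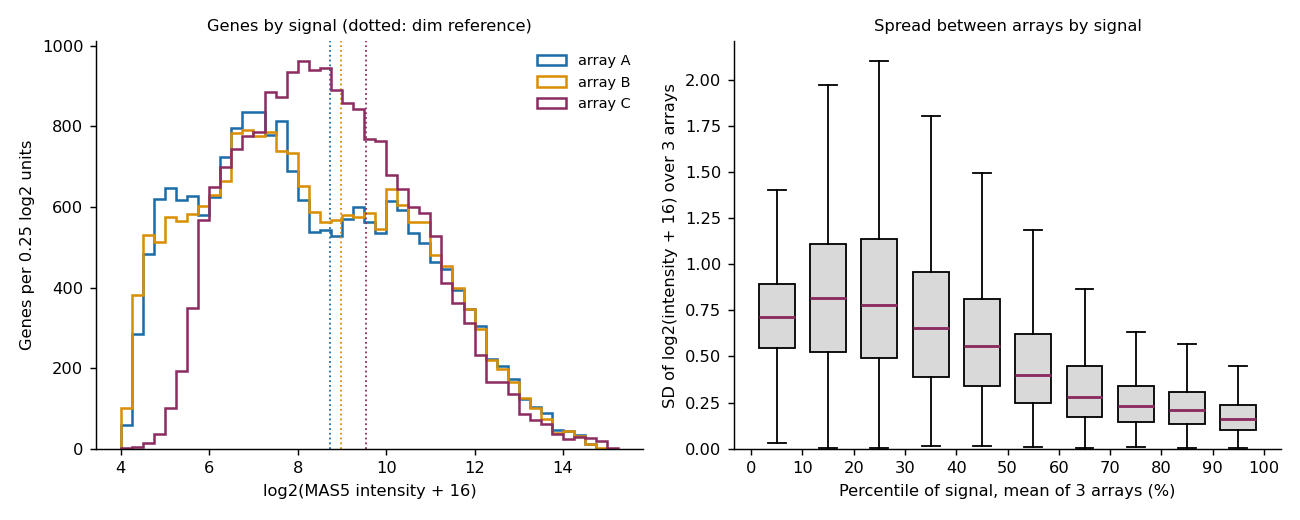
Left, the number of genes by log2(MAS5 intensity + 16) on each array, with the limit of the dim reference dotted; array C has fewer genes at low signal. Right, the SD of log2 values over the 3 arrays in 10 classes of percentile (boxes are quartiles, lines medians, whiskers 1.5 times the box length), which narrows to a median of 0.163 for genes at or above percentile 90.

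The 15 genes above the dim reference with the widest range over the arrays were highest on A in 5 cases, on B in 2 and on C in 8. NPM3, a nucleolar chaperone, read 4088, 1048 and 797, a range of 2.34 log2 units. HMOX1, the haem oxygenase of the oxidative stress response, read 4786, 2900.2 and 1204, LMNB1, a lamin, 2884.5, 1993 and 893, ERGIC1 3618, 3081 and 1023 and SUPT4H1 2427.5, 1105 and 755, all highest on A and lowest on C. IGFBP1, a binding protein of insulin-like growth factors, read 1949.5, 4348 and 984, and RASEF 746, 2632 and 2444. LINC00520 read 1791, 2466 and 8055, ACACB 1098, 1145 and 4744.5, HOTTIP 1414, 1813 and 4498, EGFR 1358, 851 and 2849, CACNG4 702, 833 and 2352, LINC00537 661, 755 and 2119, CLASRP 1075, 632 and 2047 and CDH22 596.5, 579.7 and 1934, all highest on C. The receptor gene EGFR was above in 2 of 9 probe sets and not above in the others.

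Probe sets of the same gene often disagreed. Of the 703 genes on the lists 629 were measured, 400 of them by several probe sets, and in 167 these lay more than 3 log2 units apart. Over all genes above the dim reference with several probe sets, 717 of 4317 had all of them above. IRF4 read 10257, 7988 and 7783 through the brightest and 4.5, 1.3 and 29.7 through the dimmest of 3, and XBP1 7508, 7779 and 5375 through the brighter and 156, 19.5 and 34.5 through the dimmer of 2. By contrast HGF, MS4A1, SSR1 and CXCR4 were above in every probe set. Probe sets can lie in introns or beyond a transcript's usual end, and the part of this in the disagreement was not tested.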

How the data were processed

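The values were intensities of 54675 probe sets on each array, deposited by the authors as MAS5 output on a linear scale, with MAS5 named in the submitters' processing notes but its version and settings not given in the sources used here. Each array's mean without the upper and lower 2% of probe sets was 500.1, 500.1 and 500.0, and nothing was rescaled. Probe sets annotated with exactly 1 gene numbered 41091 and gave 19775 genes, each read through its brightest probe set by mean log2(value + 16) over the 3 arrays. Symbols were updated through Entrez identifiers, and 54 of 41097 annotated probe sets had no match in RefSeq. Intensities are as deposited, so a fold between genes is not a ratio of transcripts. No test was run, since no comparison of groups is made, and n = 3 throughout.

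The genes described and the lists were chosen with earlier results of these data known. Genes were named by rule: the 30 brightest, the 15 of widest range among genes above the dim reference, members of lists of up to 20 genes, the 6 highest and 4 lowest of longer lists, members whose probe sets differed by over 3 log2 units, and CKS1B. Not every gene the rule allows is described, and the text marks genes chosen otherwise. Of 703 list members 74 were not analysed here.

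Motifs were sought in RefSeq promoters of GRCh38.p14, and the CCAAT box, the CHR and the interferon element were added after the data were seen. Alternatives were the pseudocount, quantile normalization, the choice of probe set, the limit of the dim reference and leaving out each array. A planned comparison of protein ends was not run. The ranking and the calls were tested on simulated data. Python 3.11.15, numpy 2.4.6, pandas 2.3.3, scipy 1.17.1 and matplotlib 3.10.9 were used.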

Additional observations from a re-analysis of the deposited data

Results flagged for a closer look

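Signal also appeared in probe sets that the gene values leave out. Of 1801 probe sets annotated with several genes, 561 (31.1%) were above the dim reference on all 3 arrays, a larger share than the 21.6% of single-gene probe sets. Of 11721 probe sets with no gene name in the annotation, 573 (4.89%) were above it. These probe sets drew attention because they lie outside the values used for every gene described. They were given no gene here.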

How the results depend on the processing

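The count of genes above the dim reference was 6212, and 2670 when the limit was the highest value of the reference, which is KRT10, instead of its 95th percentile. It was 4402 when probe sets of a gene were averaged, 4320 without probe sets whose names carry a suffix, 7104 with the 90th percentile, 7651 with 2 of 3 arrays required and 6860 without KRT10, a limit chosen after seeing the data. Leaving out an array gave 6275 to 7511 genes. The median SD of log2 values over all genes was 0.419, and 0.20 over genes above the dim reference only. Leaving out an array gave 0.197 to 0.408, with the lowest value without array C. The members above in a list moved by over 1.5 times in 14 of 36 lists without suffixed probe sets, among them the ribosomal proteins, and in 17 of 36 with the highest value of the reference. With probe sets averaged they moved as far in 9 of 36, among them the plasma cell factors, the cereblon list and the RNA interference genes. Median percentiles of lists moved by more than their SD between arrays in 28 of 36 lists without suffixed probe sets, by up to 31.4 for ribosomal proteins, and in 26 of 36 when probe sets were averaged. Quantile normalization keeps the order of probe sets on an array, so it hardly moved these counts and ranks. It gave 6219 genes above the dim reference, left the count of every list as it was and moved list medians by at most 0.03. A planned comparison of protein ends was not run, for want of protein sequences here. No paired analysis was possible because no result comes from a test between groups. Signal near the reference limits the dim genes, whose spread is larger, and 3 arrays limit every value.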

Other observations

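Several genes outside the lists were as bright as the plasma cell factors. They were chosen after their values were seen, as a description. IL32, a cytokine, read 12765, 11033 and 14909 on arrays A, B and C, and RGS1, a regulator of G protein signalling in lymphocytes, 12892, 10742 and 11751. PTPRO, a receptor phosphatase, read 10324, 12564 and 10340 (percentile 98.8) through 1 of 3 probe sets. POU2AF3, a coactivator of octamer-binding factors and a relative of POU2AF1, read 6136, 5942.5 and 6493. PIM2, a survival kinase, read 3831, 4276 and 3517.5, and TENT5C, a poly(A) polymerase mutated in myeloma, 5470, 5821 and 3337. TENT5C was lower on C than on A and B, and none of these genes spanned more than 1 log2 unit over the arrays.

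Genes better known from bone, matrix or nerve were also bright. CTHRC1, a secreted collagen-repeat protein, read 9452, 9753 and 8713, GJA1, the gap junction protein connexin 43, 7998.5, 7873 and 7181, and IGFBP3 7587, 8306 and 6006. BMP5, a bone morphogenetic protein, read 4783, 4994 and 5058.5, and RUNX2, the factor of bone-forming cells, 4071, 4709 and 3161 through 1 of 6 probe sets. BHLHE22 read 6985, 8977 and 7394, UNC13C 6747, 6859 and 5610, and BCHE, butyrylcholinesterase, 4987, 5431.5 and 4591. AMPD1, AMP deaminase, read 6159, 8236 and 5453, COCH 4335.5, 4916 and 3845, LAMP5 5286.5, 4423 and 4352, PRSS21 4337, 4377.5 and 4934, and PEG10 5564, 6003.5 and 4299. CD8B, a chain of the T cell antigen CD8, read 5173, 4682 and 4408 through 1 of 4 probe sets, while CD8A lay at percentile 51.7 and was not above the dim reference. All these genes were above the dim reference on every array, and none is on a list.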
